A study of Mus musculus with 8 samples.

Results

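The receptors for the monoamine transmitters serotonin, dopamine, noradrenaline and histamine, and for acetylcholine, are described here as measured on ribosome-bound RNA of the mouse hippocampus. They were taken by gene name: all array probes named for a serotonin (Htr), dopamine (Drd), adrenergic (Adra, Adrb), muscarinic (Chrm), nicotinic (Chrn) or histamine (Hrh) receptor gene. The names gave 66 probes of 53 genes, among 35739 genes on the array, and 44 of the 53 were bright enough to be tested, among 29529 genes tested.

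Ctcf conditional knockouts (CKO) were set against controls (WT), with 4 mice per group and 1 array per mouse. The CKO mice carried 2 floxed Ctcf alleles, the WT mice wild-type Ctcf, and mice of both groups also carried Camk2a-Cre and the Ribotag allele of Rpl22. The submitters' design text describes the controls instead as floxed mice without naming Cre, and the labels of the single samples were followed here. All mice were C57BL/6, untreated and at least 3 months old, with 3 males and 1 female per group. Camk2a drives the Cre in forebrain excitatory neurons, and the immunoprecipitate of tagged ribosomes can also carry RNA of other cells. In such bulk RNA, fewer cells of a type and less RNA per cell cannot be told apart.

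Most of these receptors pass their signal through G proteins. Gs-coupled receptors raise cyclic AMP, Gi-coupled ones lower it and open potassium channels, and Gq-coupled ones activate phospholipase C. The nicotinic receptors and the serotonin receptors of the Htr3 group are instead ion channels opened by the transmitter. The transmitters themselves reach the hippocampus mainly through axons of neurons in the brainstem, hypothalamus and septum, and through their receptors they set the excitability and plasticity of pyramidal neurons. CTCF, the protein encoded by Ctcf, binds DNA and shapes chromosome loops.

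The 30 bases at the 5′ end of the 60-base probes are shown for the receptors on which the comparison turns: the 3 with the smallest p, a gene with signal above background in WT alone, and a gene whose 2 probes differed in sign. Coordinates are those of mm9, as in the array files. The Chrna9 probe lies at chr5:66368450-66368509 on the plus strand. The probes on the minus strand lie at chr1:123406629-123406688 for Htr5b, chr2:179834245-179834304 for Hrh3 and chr16:64924583-64924642 for Htr1f. The first Chrna7 probe lies at chr7:70244005-70244064 and the second at chr7:70286594-70286653, both on the minus strand. All letters are lower case, since no stretch within a probe is singled out.
Chrna9: tgtcatgaccgtcttgatcatagcaagagc
Htr5b: ttttaggtattggtgagcatttgttagacc
Hrh3: acacctgggaggaatgctttgcctcgtcct
Htr1f: ggacacctttcacaaatcaagaccatttga
Chrna7, first probe: cgagaattggggtcctaactctacattgtg
Chrna7, second probe: catgtttctcctttctggatgcacctcaga

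Signal is given as log2 of the background-subtracted intensity minus the array's 75th percentile, so that 0 is the 75th percentile of all probes of that array. These values compare mice for 1 probe and do not rank genes, because probes differ in how they hybridise. Ctcf itself averaged -2.24 ± 0.29 in CKO and -1.37 ± 0.30 in WT (SD, n = 4 each), a difference of -0.87 (SE 0.22). The groups did not overlap, and p was 0.0286 in an exact permutation test (two-sided), which is the lowest p possible with 4 arrays per group. In limma its unadjusted p was 0.00297 and its adjusted p over all genes 0.724. The adjusted test used below thus did not call the targeted gene. Whether the Ctcf probe lies in the deleted part of the gene is not given in the sources used here. The share of probes well above background ran from 72.2% to 79.2% over the CKO arrays and from 77.9% to 81.5% over the WT arrays, lowest in CKO 3. All 5 markers of excitatory neurons were well above background on all 8 arrays, and so were markers of other cells: 6 of 7 of interneurons, 4 of 5 of astrocytes, where Gja1 was on no array, and 5 of 5 of oligodendrocytes. Of the microglial markers 4 of 5 were above background on all CKO arrays and 5 of 5 on all WT arrays, with the same counts for endothelium. Of 6 markers of cholinergic and monoaminergic neurons 4 were above it on all CKO arrays and 4 on all WT arrays, without Chat and Slc6a4. The arrays lay on 3 slides: WT 1 on slide 1, CKO 1, CKO 2, WT 2 and WT 3 on slide 2, and CKO 3, CKO 4 and WT 4 on slide 3.

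Receptors of all 5 transmitters gave signal in WT mice. A gene was counted as detected where a probe of it was well above background on all 4 arrays of a group, by the flag of the scanning software. By this count 41 of the 53 receptor genes were detected in CKO and 44 in WT. The WT share of 83.0% compares with 78.9% of all genes on the array, a share near that background. Over all probes the share above background was 72.2% to 79.2% on the CKO arrays and 77.9% to 81.5% on the WT arrays. No CKO share over all genes is given, so lower CKO counts, here and by family, are not read as a receptor result. Counted over probes, between 52 and 55 of the 66 were above background on single CKO arrays and between 55 and 57 on single WT arrays.

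**Figure D1:**
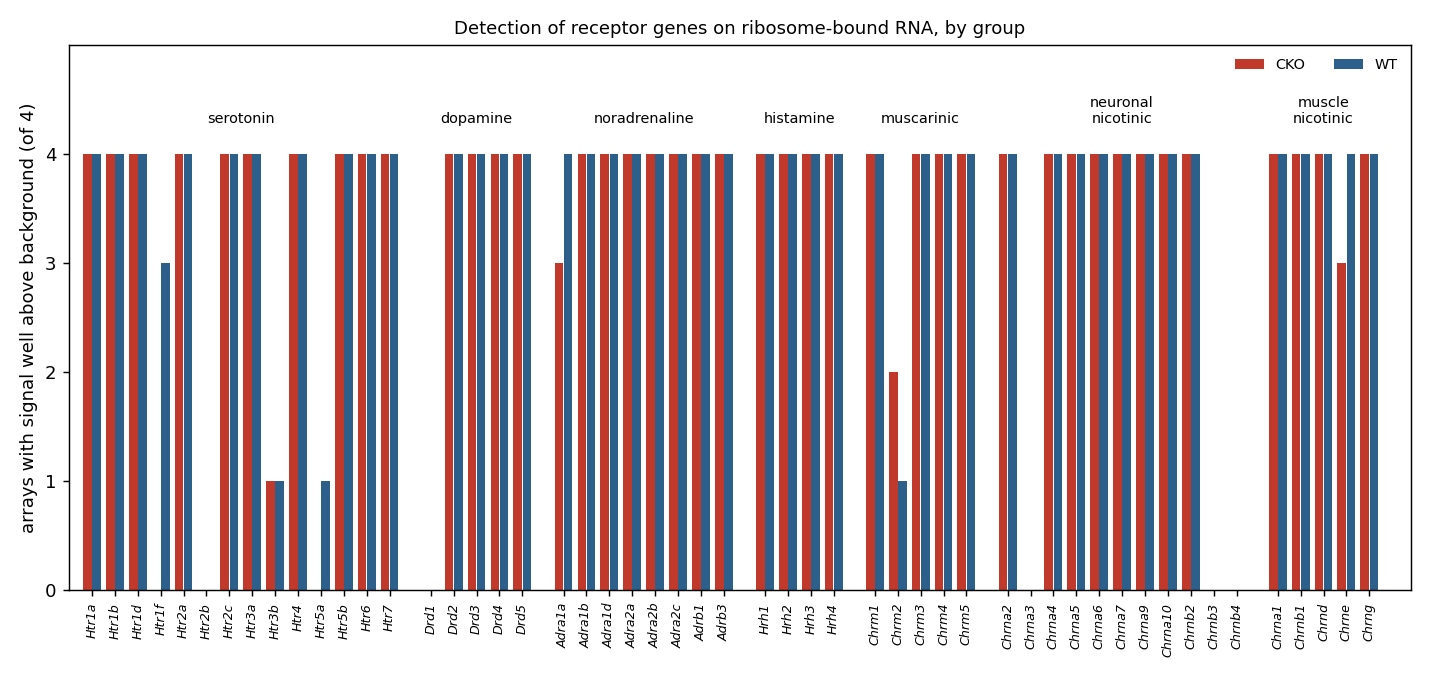
Number of arrays, of 4 per group, on which the best-detected probe of each of 52 receptor genes was well above background, in CKO (red, left bar) and WT (blue, right bar), by receptor family. Chrna3, Chrnb3, Chrnb4, Drd1 and Htr2b have no bar in either group, and Adra1a and Chrne reach 4 arrays in WT but not in CKO.

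The families differed in which members were missing. Of the 14 serotonin receptors 10 were detected in CKO and 10 in WT, of the 5 dopamine receptors 4 and 4, and of the 9 adrenergic receptors 7 and 9. All 4 histamine receptors were detected in both groups. Of the 5 muscarinic receptors 4 were detected in CKO and 4 in WT, and of the 11 neuronal nicotinic subunits 8 and 8. The 5 nicotinic subunits known from muscle gave counts of 4 in CKO and 5 in WT.

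No array gave signal well above background for 5 genes. These were Drd1, the Gs-coupled dopamine receptor best known from striatal projection neurons, and Htr2b, a Gq-coupled serotonin receptor known mainly from peripheral tissue. The others were the nicotinic subunits Chrna3 and Chrnb4, which together form the receptor of autonomic ganglia, and Chrnb3, known from midbrain dopamine neurons. Each of the 5 has a single probe on the array, and the absence of signal is that of this probe.

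A further 4 genes were above background on some arrays only. Chrm2, a Gi-coupled muscarinic receptor known as an autoreceptor on cholinergic terminals, was above it in CKO 3, CKO 4 and WT 1. Htr3b, a subunit of the serotonin-gated channel, was above it in CKO 2 and WT 3. Htr5a, a Gi-coupled serotonin receptor, was above it in WT 2 alone.

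Htr1f, a Gi-coupled serotonin receptor, was above background in 0 of 4 CKO mice and 3 of 4 WT mice. Its values were -5.67, -7.45, -7.30 and -6.01 in CKO 1 to 4, against -4.24, -5.52, -4.36 and -4.18 in WT 1 to 4. WT 2 was the WT array where it was not above background, and all CKO values lay below all WT values. To set it against WT, each CKO value was raised to the lowest signal that counts as above background on its array. CKO 1 and CKO 4, already higher than that level though not flagged as above background, kept their own values. So reckoned, Htr1f was 2.03-fold lower in CKO, which is no strict bound, since the WT mean includes WT 2. Htr1f was outside the test, which required 4 of the 8 arrays. With no filter on dim probes its difference had an unadjusted p of 0.00252 and an adjusted p of 0.719 (limma). That p cannot serve as a test, since Htr1f was singled out after its values were seen. It also rests on values not above background in all CKO mice and in WT 2.

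Adra1a and Chrne were detected on all WT arrays and missed on 1 CKO array. Adra1a, a Gq-coupled adrenergic receptor, read -3.72, -4.44, -7.38 and -4.78 in CKO 1 to 4, against -3.13, -3.79, -4.09 and -3.47 in WT 1 to 4. CKO 3 was far below the others and was the one array where it was not above background. Chrne, the subunit of the adult muscle receptor, was missed in CKO 3, at -5.74, where the other CKO mice read from -4.36 to -2.87 and the WT mice from -3.66 to -3.00. In both genes the groups overlapped, and CKO 3, the array that missed them, had the fewest probes above background.

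In the comparison of CKO with WT no receptor gene changed by the adjusted test. Of the 44 tested, 0 passed an adjusted p of 0.05 (limma, Benjamini-Hochberg over all genes), where 0.00339% of all genes tested, 1 gene, did so. The smallest adjusted p among the receptors was 0.724. At an unadjusted p below 0.05 there were 3 receptors, 1 higher and 2 lower in CKO, which is 6.82% of the 44. Of all genes tested 5.3% passed that p, 2.5% with higher and 2.8% with lower signal in CKO, so the count for the receptors is near the background. Leaving out CKO 4 gave 5 receptors at that p, beside 5.66% of all genes. Leaving out WT 4 gave 6, beside 13.3% of all genes. With array weights 6 receptors had such a p, beside 15.8% of all genes, and within slide 2 there were 6, beside 7.41%.

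The intervals given here are those of the fit without the slide, and they do not cover changes with the slide or the scaling. The first principal component, the axis of largest variance between the arrays, held 54.4% of the variance. On it the arrays of slide 3 lay from 29.6 to 128 and the others from -67.4 to -14.6. For 36 of the 44 the 95% interval of the difference lay within a 2-fold change in either direction, and for 41 of the 44 it held 0. The other 8, with intervals reaching beyond a 2-fold decrease, included Adra1a, Chrna6, Chrna10, Chrne, Hrh4, Htr1d and Htr5b. The median difference over the receptors was -0.11, beside -0.08 over all genes tested, with 15 receptors above 0 and 29 below, and 41.5% of all genes above 0. With the arrays scaled to their median, the receptor median was 0.04 and that of all genes 0.07, with 23 receptors above 0, so the balance of signs follows the scaling.

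**Figure D2:**
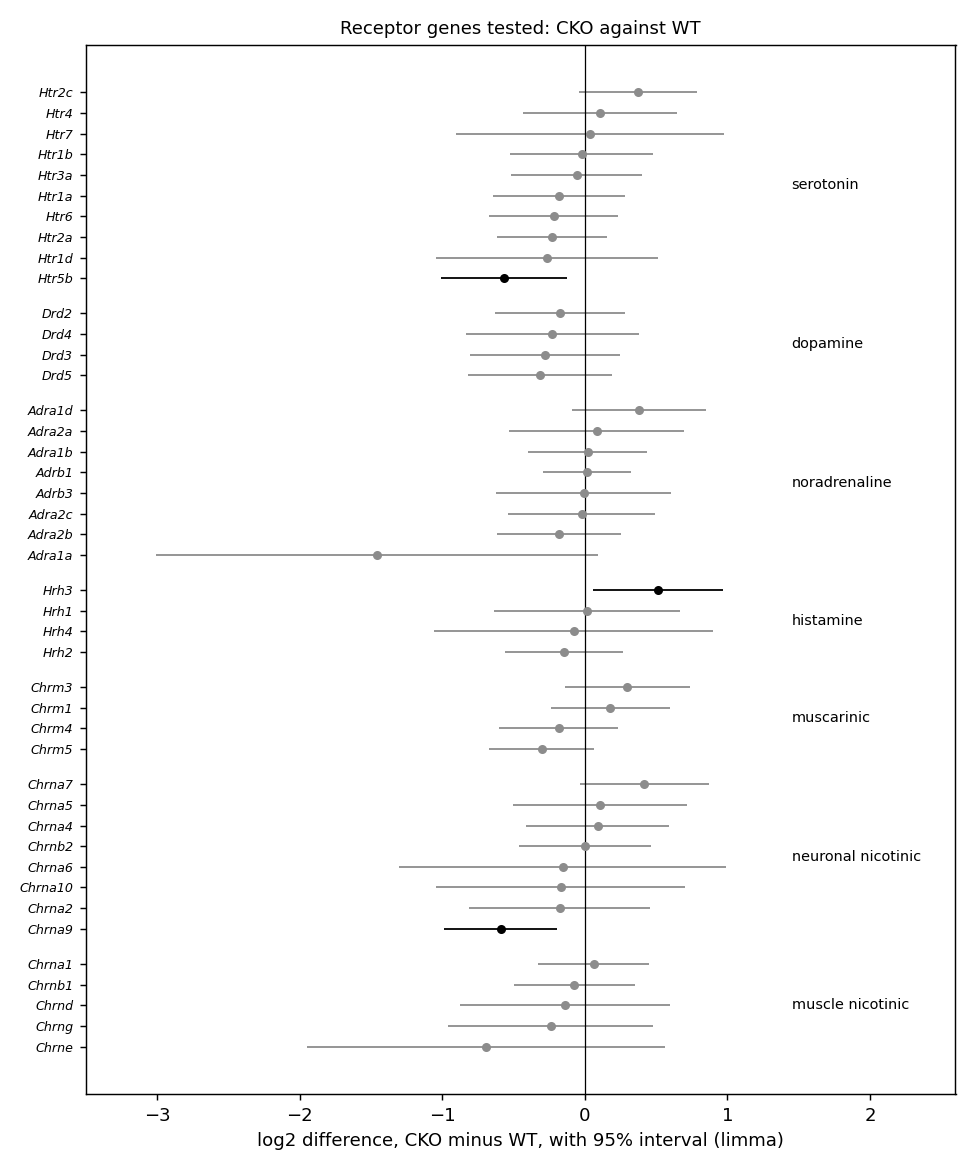
Log2 difference of CKO minus WT for 43 of the receptor genes tested, with the 95% interval from limma (n = 4 mice per group), ordered within each family. Chrna9, Htr5b and Hrh3, in black, have intervals that exclude 0 at an unadjusted p below 0.05, and none passed the adjusted test.

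Chrna9, a nicotinic subunit best known from cochlear hair cells, had the smallest p of the receptors. It read -3.44, -3.44, -3.75 and -3.35 in CKO 1 to 4, against -2.72, -2.70, -3.04 and -3.16 in WT 1 to 4. All 4 CKO mice lay below all 4 WT mice. The difference was -0.59 (SE 0.17), a CKO signal of 66.4% of WT, with an unadjusted p of 0.0081 and an adjusted p of 0.724 (limma). It was the one tested receptor of 44, or 2.27%, whose groups did not overlap, where 3.32% of all genes tested had such groups. The difference was -0.57 within slide 2, -0.39 within slide 3 and -0.50 with the slide as a block. Chrna10, the subunit that joins Chrna9 in the hair cell receptor, differed by -0.17 (SE 0.39), with CKO mice between -3.05 and -2.27 and WT mice between -3.69 and -1.75.

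Htr5b encodes a serotonin receptor that is intact in the mouse and a pseudogene in humans. It read -4.00, -3.94, -3.41 and -3.82 in CKO 1 to 4, against -3.13, -3.54, -3.24 and -2.99 in WT 1 to 4. CKO 3 lay above WT 2, so the groups overlapped by this pair. The difference was -0.57 (SE 0.19), with an unadjusted p of 0.0172 and an adjusted p of 0.724 (limma). It was -0.58 within slide 2, -0.63 within slide 3 and -0.60 with the slide as a block. Without CKO 1 it was -0.50, with an unadjusted p of 0.0522.

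Hrh3, the Gi-coupled histamine receptor that limits transmitter release from nerve endings, was the receptor of smallest p among those with higher signal in CKO. It read 3.00, 2.88, 3.08 and 2.55 in CKO 1 to 4, against 2.08, 2.19, 2.45 and 2.74 in WT 1 to 4. The difference was 0.51 (SE 0.20), or 1.43-fold, with an unadjusted p of 0.0305 and an adjusted p of 0.724 (limma). CKO 4 lay below WT 4, and both were on slide 3. The difference was 0.62 within slide 2, 0.08 within slide 3 and 0.40 with the slide as a block, where the unadjusted p was 0.0848 (limma). The unadjusted p was above 0.05 without CKO 1 (difference 0.47), CKO 2 (0.51), CKO 3 (0.44), WT 1 (0.42) or WT 2 (0.46).

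**Figure D3:**
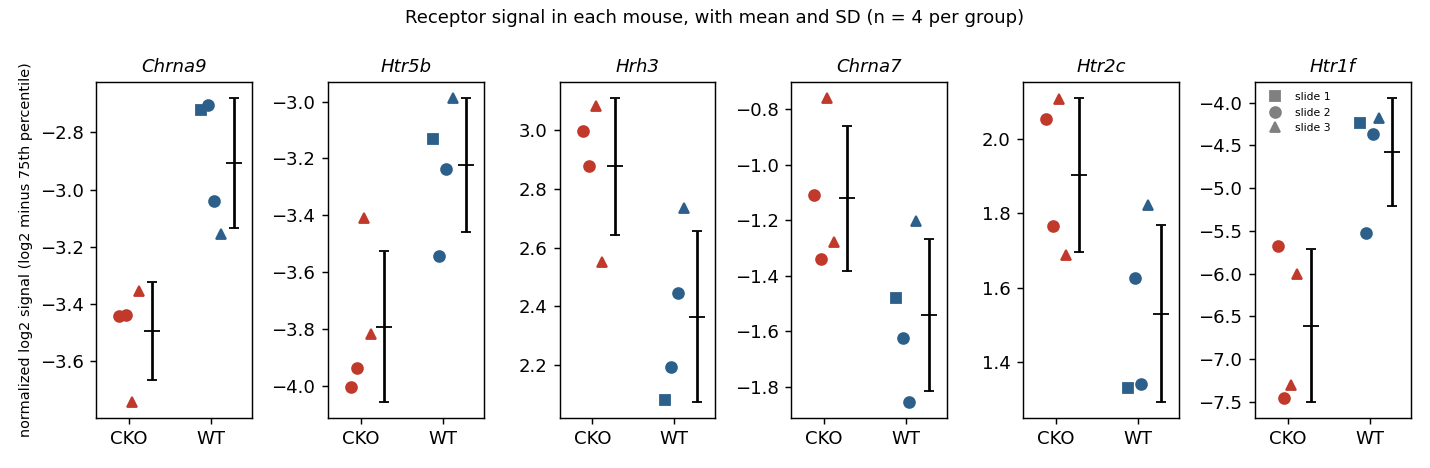
Normalized log2 signal of 6 receptor genes in each mouse, CKO (red) left of WT (blue), with the group mean and SD (n = 4 each) beside the points and the slide as the marker shape. The Chrna9 and Htr1f groups are separate, while in Htr5b, Hrh3, Chrna7 and Htr2c at least 1 mouse lies within the other group's range.

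The direction of a receptor's difference went with its signal. With all tested genes cut into 10 equal parts by mean signal, the median difference of CKO minus WT was -0.52 in the dimmest part, -0.29 in the next and 0.16 in the brightest. Chrna9 and Htr5b lie in the next to dimmest part, where 7.75% of genes had an unadjusted p below 0.05, and Hrh3 lies in the brightest, where 7.21% did. Across the 44 receptors mean signal and difference had a Pearson correlation of 0.49 and a Spearman correlation of 0.42, which describes genes that share the same 8 arrays. After quantile normalization the Pearson correlation was 0.11. Under it Chrna9 differed by -0.37 (unadjusted p = 0.0410, limma), Htr5b by -0.33 (unadjusted p = 0.291, limma) and Hrh3 by 0.38 (unadjusted p = 0.0469, limma). With normexp background correction, which adds an offset and by itself shrinks differences of dim probes, Chrna9 differed by -0.19, Htr5b by -0.13 and Hrh3 by 0.35.

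**Figure D4:**
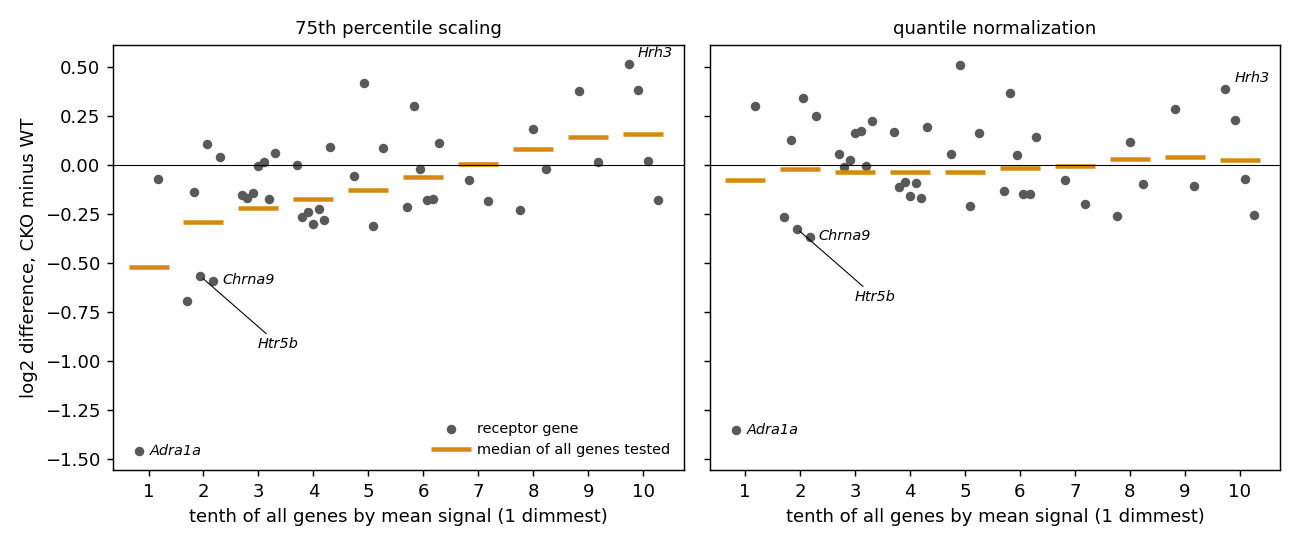
Log2 difference of CKO minus WT of 43 tested receptors (grey points) against the part of all genes by mean signal, from 1 (dimmest) to 10 (brightest), in which each lies, with the median of all genes in that part (orange bars), after scaling to the 75th percentile (left) and after quantile normalization (right). On the left the medians run from -0.52 in the dimmest part to 0.16 in the brightest, and on the right from -0.08 to 0.04.

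Of the 10 serotonin receptors tested, 0 passed an adjusted p of 0.05, and the median difference was -0.12. At an unadjusted p below 0.05 there was 1 (Htr5b), beside 5.3% of all genes. Htr1a, the Gi-coupled receptor that hyperpolarises pyramidal neurons, read -0.13, -0.73, -0.34 and -0.57 in CKO 1 to 4, against -0.23, -0.53, -0.40 and 0.13 in WT 1 to 4. Its difference was -0.18, with an interval of -0.64 to 0.28, and the groups overlapped widely. Htr2a, a Gq-coupled receptor, read 0.42, 0.42, 0.54 and 0.40 in CKO 1 to 4, against 0.32, 0.64, 0.91 and 0.81 in WT 1 to 4. WT 1 lay below all CKO mice and the other WT mice above them, and the difference was -0.23 (interval -0.61 to 0.16).

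Htr2c, a Gq-coupled receptor whose messenger is edited and spliced, had 3 probes above background on all arrays. The brightest read 2.05, 1.77, 2.11 and 1.69 in CKO 1 to 4, against 1.33, 1.63, 1.34 and 1.82 in WT 1 to 4. Its difference was 0.37 (interval -0.04 to 0.79, unadjusted p = 0.0712, limma), with WT 4 among the CKO values. Over the 3 probes the differences ran from 0.05 to 0.45, all above 0. Without WT 4 the unadjusted p of the brightest was 0.0307 (limma), at a difference of 0.47, but 13.3% of all genes were then below 0.05. The brightest probe differed by 0.43 within slide 2 and 0.07 within slide 3. With the slide as a block it differed by 0.29 (unadjusted p = 0.161, limma).

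Htr4 and Htr7 are both Gs-coupled and known to raise pyramidal cell excitability. Htr4 read -0.52, -0.39, -0.03 and 0.10 in CKO 1 to 4, against -0.34, -0.54, -0.64 and 0.25 in WT 1 to 4. Htr7 read -3.43, -4.30, -2.46 and -2.51 in CKO 1 to 4, against -3.67, -3.32, -3.20 and -2.66 in WT 1 to 4. The groups overlapped in both, with differences of 0.11 (interval -0.43 to 0.65) for Htr4 and 0.04 (interval -0.90 to 0.98) for Htr7. Htr5a, above background in WT 2 alone, read -7.31, -7.24, -6.99 and -7.53 in CKO 1 to 4, against -7.56, -4.26, -6.59 and -7.54 in WT 1 to 4. The others tested were Htr1b, Htr1d, Htr3a and Htr6, with differences from -0.27 to -0.02.

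The 4 dopamine receptors tested all had a difference below 0, none of them past an unadjusted p of 0.05, with a median of -0.25, where 41.5% of all genes tested lay above 0. The 4 stayed below 0 under median scaling, quantile normalization, normexp, the deposited values and the slide as a fixed block, where their medians lay between -0.27 and -0.07. Within slide 2 the Drd5 difference was 0.09. Drd2, the Gi-coupled receptor targeted by antipsychotic drugs, read 0.00, -0.29, -0.80 and -0.33 in CKO 1 to 4, against -0.38, -0.04, -0.01 and -0.30 in WT 1 to 4. Drd5, the Gs-coupled dopamine receptor known from hippocampal pyramidal neurons, read -0.91, -1.31, -1.30 and -1.60 in CKO 1 to 4, against -0.99, -1.15, -1.25 and -0.48 in WT 1 to 4. The groups overlapped in both genes. The difference was -0.17 for Drd2 (interval -0.63 to 0.28) and -0.31 for Drd5 (interval -0.82 to 0.19), and Drd3 and Drd4 lay between these at -0.28 and -0.23. Drd1, not above background on any array, read between -7.76 and -7.33 in CKO and between -7.74 and -7.37 in WT.

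The 9 adrenergic receptors, the targets of noradrenaline and adrenaline, had a median difference of -0.01, with 4 above 0 and 5 below. Adrb1, a Gs-coupled receptor known for its part in hippocampal plasticity, had the narrowest interval of all tested receptors. It read 2.24, 2.23, 2.32 and 2.31 in CKO 1 to 4, against 2.32, 2.28, 2.31 and 2.12 in WT 1 to 4. The groups overlapped, with a difference of 0.02 (interval -0.29 to 0.32). The difference was -0.11 after quantile normalization and -0.14 with the deposited values. A dimmer Adrb1 probe, also above background on all arrays, differed by 0.24. Adra2a, a Gi-coupled receptor known as the autoreceptor of noradrenaline neurons, read -0.80, -1.30, -0.67 and -1.03 in CKO 1 to 4, against -1.06, -1.65, -1.03 and -0.40 in WT 1 to 4.

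The Adra2a difference was 0.08 (interval -0.53 to 0.70). Adra1a, whose values are given above, had the lowest difference of the family, at -1.46 (interval -3.01 to 0.09, unadjusted p = 0.0619, limma). The Adra1a value rests on CKO 3, without which it was -0.69. Within slide 2 Adra1a differed by -0.14 and within slide 3, which holds CKO 3, by -2.61. Adra1b, Adra1d, Adra2b, Adra2c and Adrb3 differed by -0.18 to 0.38.

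Of the 4 histamine receptors, Hrh3 is described above. Hrh1, the Gq-coupled receptor blocked by sedating antihistamines, read -2.55, -2.14, -2.52 and -2.86 in CKO 1 to 4, against -2.13, -2.51, -2.15 and -3.33 in WT 1 to 4. Its groups overlapped, its difference was 0.02, and its 3 probes above background on all arrays gave differences from -0.37 to 0.56, so they disagreed in sign. Hrh2, a Gs-coupled receptor that lessens the afterhyperpolarisation of pyramidal neurons, read -2.58, -2.45, -2.67 and -2.93 in CKO 1 to 4, against -2.30, -2.36, -2.54 and -2.85 in WT 1 to 4. The Hrh2 difference was -0.15 (interval -0.56 to 0.27), again with overlap. Hrh4, known mainly from immune cells, differed by -0.08 (interval -1.05 to 0.90).

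The 4 muscarinic receptors tested had a median difference of 0.00, with 2 above 0 and 2 below. Chrm1, the Gq-coupled receptor that is the main muscarinic receptor of pyramidal neurons, read 1.35, 1.04, 1.63 and 1.44 in CKO 1 to 4, against 1.21, 1.06, 1.00 and 1.46 in WT 1 to 4. Its 2 probes gave differences of 0.17 and 0.18, and the interval of the brighter was -0.24 to 0.60. Chrm3, also Gq-coupled, read -0.90, -1.01, -0.43 and -0.90 in CKO 1 to 4, against -1.19, -1.32, -1.15 and -0.77 in WT 1 to 4. WT 4 lay above all CKO mice but CKO 3, and the other WT mice lay below all CKO mice, with a difference of 0.30 (interval -0.14 to 0.74).

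Chrm4, a Gi-coupled receptor, read 0.44, 0.29, 0.11 and -0.15 in CKO 1 to 4, against 0.18, 0.64, 0.34 and 0.27 in WT 1 to 4. Its difference was -0.18 (interval -0.60 to 0.23), and that of Chrm5 was -0.30 (interval -0.67 to 0.06). Chrm2 read -5.86, -6.05, -3.87 and -4.95 in CKO 1 to 4, against -4.58, -7.65, -7.49 and -5.45 in WT 1 to 4. The Chrm2 values ran over more than 2 log2 units within each group, and the groups overlapped.

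The 8 neuronal nicotinic subunits tested had a median difference of -0.08, with 3 above 0 and 5 below. With the deposited values 7 of the 8 lay above 0 and with quantile normalization 5, so that this balance too followed the scaling. Chrna4 and Chrnb2 form the receptor that binds nicotine with high affinity in the brain. Chrna4 read -1.55, -2.16, -1.64 and -1.20 in CKO 1 to 4, against -1.61, -1.53, -1.89 and -1.88 in WT 1 to 4. Chrnb2 read -2.08, -2.61, -2.39 and -2.03 in CKO 1 to 4, against -2.38, -2.47, -2.39 and -1.87 in WT 1 to 4. Both overlapped, with differences of 0.09 (interval -0.41 to 0.59) for Chrna4 and 0.00 (interval -0.46 to 0.46) for Chrnb2.

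Chrna7 encodes the subunit that forms a channel on its own and is permeable to calcium. Its first probe is printed in 10 spots on each array, whose SD within an array was between 0.08 and 0.17 on the log2 scale. That probe read -1.11, -1.34, -0.76 and -1.28 in CKO 1 to 4, against -1.48, -1.62, -1.86 and -1.20 in WT 1 to 4. WT 4 lay above 2 of the CKO mice, and the difference was 0.42 (interval -0.04 to 0.87, unadjusted p = 0.0675, limma). The second probe, 42.5 kb away in the same gene, differed by -0.37, so the 2 probes disagreed in sign. Without WT 4 the unadjusted p of the first was 0.0281 (limma), at a difference of 0.53, but 13.3% of all genes were then below 0.05. The first probe differed by 0.51 within slide 2 and 0.18 within slide 3. With the slide as a block it differed by 0.38 (unadjusted p = 0.0791, limma).

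Chrna2, Chrna5 and Chrna6, the other tested neuronal subunits, differed by -0.18, 0.11 and -0.15. The 5 muscle subunits Chrna1, Chrnb1, Chrnd, Chrne and Chrng, known from the neuromuscular junction, differed by -0.69 to 0.06, with a median of -0.14. None of the 5 passed an unadjusted p of 0.05.

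Probes of a gene did not always give the same sign. There were 8 receptor genes with 2 or more probes above background on all 8 arrays, and their differences had 1 sign in 5 genes, Adra1b, Adrb1, Chrm1, Htr2c and Htr4, and mixed signs in Adra1d, Chrna7 and Hrh1. The range was widest in Hrh1, at 0.92, and narrowest in Chrm1, at 0.01.

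Grouped by how they signal, the Gi-coupled receptors had a median difference of -0.18 over 12 genes, the Gq-coupled ones 0.02 over 9, the Gs-coupled ones -0.08 over 8 and the ion channels -0.11 over 14, with Htr5b in none of these groups. These medians lie within 0.2 of that over all genes and are given as a description. Of the markers of dentate granule cells, 3 of 3 were above background on all arrays. Their summed linear signal, relative to the array's 75th percentile, was 6.57 to 7.84 in CKO and 8.18 to 11.5 in WT, without overlap. Of all single genes tested, 3.32% had groups without overlap. Singly, Prox1 differed by -0.41, C1ql2 by -0.31 and Dsp by -0.52, none at an unadjusted p below 0.05 (limma). The marker sum of excitatory neurons was 94.8 to 126 in CKO and 89.0 to 108 in WT. The part of either in the receptor values was not tested.

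The genes that make, carry or break down the transmitters, or that pass on the receptors' signal, were described from a list of 81 names, of which 74 were tested. They were enzymes and transporters of the transmitters, receptor chaperones and partners, and G proteins with their effectors. No gene of the list passed an adjusted p of 0.05 (limma). At an unadjusted p below 0.05 there were 11, or 14.9% beside 5.3% of all genes, with 9 higher and 2 lower in CKO. The count was 5 without WT 1, beside 3.04% of all genes, and 19 without WT 4, beside 13.3%. Within slide 2 it was 6, beside 7.41% of all genes. The groups did not overlap in 8, or 10.8% beside 3.32% of all genes. The median difference was 0.12, with 50 genes above 0. In the brightest of the 10 parts of all genes by signal the median difference was 0.16. After quantile normalization 8 of the 74 had an unadjusted p below 0.05, beside 4.30% of all genes. With normexp background correction 12 had such a p, beside 4.80%. The part of signal level in the pathway values was not tested.

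Among enzymes and transporters 1 of 18 was higher and 1 lower at that p, beside 2.5% of all genes higher and 2.8% lower. Maob, a monoamine oxidase that breaks down phenethylamine, read -3.00, -3.15, -2.36 and -3.23 in CKO 1 to 4, against -3.44, -3.78, -4.26 and -4.70 in WT 1 to 4. The groups were separate, and the difference was 1.11 (SE 0.31), or 2.16-fold, with an unadjusted p of 0.00543 and an adjusted p of 0.724 (limma). It was 0.94 within slide 2, 1.91 within slide 3 and 1.39 after quantile normalization. With normexp background correction it was 0.66, and with the deposited values 1.75. Dbh, which makes noradrenaline from dopamine, read -3.46, -3.70, -3.39 and -3.21 in CKO 1 to 4, against -2.87, -2.82, -3.10 and -2.93 in WT 1 to 4. Its groups were separate too, at a difference of -0.51 (SE 0.16, adjusted p = 0.724, limma), which was -0.30 after quantile normalization and -0.14 with normexp background correction.

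Among G proteins and effectors 6 of 37 were higher and 1 lower at an unadjusted p below 0.05. Of all genes 2.5% were higher and 2.8% lower at that p. The median difference of the 37 was 0.16. The adenylyl cyclases Adcy2 and Adcy5, which make cyclic AMP, and the G protein beta subunits Gnb1 and Gnb5 had the smallest p. In all 4 genes, picked by their p, the groups were separate, as in 3.32% of all genes tested. Adcy2 read 0.93, 0.78, 1.31 and 0.82 in CKO 1 to 4, against 0.38, 0.43, 0.46 and 0.06 in WT 1 to 4, a difference of 0.63 (SE 0.18, adjusted p = 0.724, limma). Gnb5 read 4.35, 4.14, 4.17 and 4.12 in CKO 1 to 4, against 3.51, 3.86, 3.55 and 3.92 in WT 1 to 4, a difference of 0.49. Adcy5 differed by 0.47, with CKO mice between 2.51 and 2.92 and WT mice between 2.16 and 2.32. The Adcy2 difference was 0.41 within slide 2 and 1.00 within slide 3. The Gnb5 difference was 0.54 within slide 2, 0.23 within slide 3 and 0.30 with the deposited values.

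Gnb1 differed by 0.44, with CKO mice between 5.43 and 5.77 and WT mice between 4.95 and 5.24. It differed by 0.33 within slide 2 and 0.45 within slide 3. Among receptor chaperones and partners 2 of 19 were higher at an unadjusted p below 0.05 and none lower, with a median of 0.15. The shares of all genes were 2.5% and 2.8%.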

How the data were processed

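RNA bound to tagged ribosomes of 8 hippocampi was measured on 1-colour Agilent arrays, 1 per mouse. The labels' protocols name whole transcriptome amplification and the dye Cy5. The deposited scanner files hold the red processed intensity, which per the file headers is background-subtracted and detrended, and the submitters' processing notes name Agilent Feature Extraction 11.5. Detection used the deposited flag that marks spots well above background, per the file headers. The authors also deposited a table of linear intensity values, whose normalization is not given in the sources used here, and its log2 was an alternative. Its blank values stayed blank, so that a gene blank on an array was fitted on the other arrays.

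Outlier spots were left out, no spot was saturated, and spots of a probe were averaged as log2. Of 55681 probes 18 had no usable spot on some array. The 75th percentile of each array was subtracted from its log2 intensity. With probes well above background on at least 4 arrays kept, and a gene read from its brightest probe by the mean, 44316 probes gave 29529 genes. A probe with several spots counted as above background where no fewer spots were above than not. Names came from the files and, through accessions, from the RefSeq table of GRCm38.p6. The two-sided test of CKO against WT was that of lmFit and eBayes in limma 3.58.1 (R 4.3.3). Its p-values were adjusted by Benjamini-Hochberg across all genes, and the fit was tested on simulated data. Intervals are 95% intervals of that fit, and the number of arrays limits the precision.

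The receptors, the pathway and marker lists and the alternatives were chosen with earlier results of these data known. Values for every mouse are given for receptors with an unadjusted p below 0.05, for those whose groups did not overlap and for a list of receptors of known role in pyramidal neurons. Of the pathway genes the 6 of smallest p are named, and other receptors are named for their detection. Htr1f was singled out after its values were seen. The sources label the mice as biological replicates. No probe was assigned to an exon or UTR, since no mm9 annotation was used here. The values of 1 receptor gene, which is in the counts and medians, are not reported here.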

Additional observations from a re-analysis of the deposited data

Results flagged for a closer look

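In 7 of 120 groups of 4 values, over the 53 receptors, the 6 named pathway genes and Ctcf, 1 mouse stood apart by Dixon's test at its 95% critical value. Chance marks about 1 in 20 such groups. Chrnb2 read -1.87 in WT 4, where the other WT mice read from -2.47 to -2.38. Chrm5 read -1.81 in WT 3, where the other WT mice read from -2.18 to -2.12. Chrnb1 read -3.84 in WT 2, where the other WT mice read from -4.28 to -4.24. Htr1f read -5.52 in WT 2, where it was not above background and where the other WT mice read from -4.36 to -4.18. Drd4 read -2.67 in CKO 3, where the other CKO mice read from -1.94 to -1.90. Htr1b read -1.38 in CKO 4, where the other CKO mice read from -0.71 to -0.59. Htr2b, above background on no array, read -7.70 in CKO 4, where the other CKO mice read from -7.34 to -7.29.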

How the results depend on the processing

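No receptor passed an adjusted p of 0.05 (limma) under any of the 26 alternatives, where the smallest was 0.283. The number of receptors at an unadjusted p below 0.05, 3 of 44 as reported, was 0 with the deposited values, 6 with array weights, 5 with the slide as a random block, 6 within slide 2 and 1 in males only. The share of all genes at that p was 4.66% with the deposited values, 15.8% with array weights, 8.15% with the slide as a random block, 7.41% within slide 2 and 4.11% in males only. It ran from 2 to 6 as each array was left out, with 5 without CKO 4, where 5.66% of all genes had such a p, and 6 without WT 4, where 13.3% did. The pathway count, 11 of 74, was 7 with the deposited values, 23 with array weights, 6 within slide 2 and 6 in males only. It was 8 with quantile normalization, beside 4.30% of all genes, and 12 with normexp background correction, beside 4.80%. As each array was left out it ran from 5 to 19. It was lowest without WT 1, beside 3.04% of all genes, and highest without WT 4, beside 13.3%. The cause was not tested. Of the 26 alternatives Chrna9 had an unadjusted p below 0.05 in 23, Htr5b in 17 and Hrh3 in 15, and each kept its sign in all 26. The receptor median, -0.11 as reported, ran from -0.17 without CKO 2 to 0.05 with the deposited values and was also above 0 with median scaling, at 0.04. The SD between mice of the receptors' median signal was 0.16 as the mean of both groups. That SD is not the error of the median difference and does not measure these moves. Ctcf stayed between -0.996 and -0.57, and the number of receptors detected in WT was between 41 and 48 over other detection rules. The slide as a block after quantile normalization was an alternative chosen after seeing the data. It gave 2 receptors at an unadjusted p below 0.05, beside 6.47% of all genes.

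Deviations from the group means correlated at -0.32, 0.39, -0.42 and 0.07 between mice 1 to 4 of the groups, so no regular pairing by replicate number was seen. CKO 3 and WT 4, both on slide 3, correlated at 0.67, while mice 1 and mice 3 of the groups lay on different slides. These values therefore cannot exclude a pairing. With the replicate number as a block, 4 receptors and 4 pathway genes had an unadjusted p below 0.05, beside 3.68% of all genes. Under that block the unadjusted p of Hrh3 was 0.0757 (limma).

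Dim probes leave the level of receptors not above background open, and 4 mice per group leave wide intervals for the dim genes. Slide 1 holds a single WT array.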

Other observations

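Receptor genes that lie side by side differed in detection. The probes of Chrna5, Chrna3 and Chrnb4, a cluster of nicotinic subunits, lie within 50 kb of each other on chromosome 9 of mm9. Chrna5, an accessory subunit, was above background on 4 of 4 CKO arrays and 4 of 4 WT arrays, while Chrna3 and Chrnb4 were above it on 0 of 4 CKO arrays and 0 of 4 WT arrays. The Chrna5 and Chrna3 probes are 4861 bases apart and on opposite strands. Chrna6 was above background on 4 CKO and 4 WT arrays, while its neighbour Chrnb3, with a probe 5757 bases away on the opposite strand of chromosome 8, was above it on 0 arrays. Htr3a was above background on 4 CKO and 4 WT arrays and its partner Htr3b, with a probe 35308 bases away on the same strand of chromosome 9, on 1 CKO and 1 WT array. Each of Chrna3, Chrna5, Chrna6, Chrnb3, Chrnb4, Htr3a and Htr3b has 1 probe.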
